A study of Caenorhabditis elegans with 2 samples.

Results

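The genes described here are tos-1 and 9 genes of splicing factors, namely the 7 SR protein genes rsp-1 to rsp-7, uaf-1 and sfa-1, 10 of the 19973 nuclear protein-coding genes of C. elegans. They were chosen by name, and selected on their measured AMA-1 signal in the same peak lists, so their counts are a description and carry no test. The study mapped AMA-1, the largest subunit of RNA polymerase II and the one that catalyses RNA synthesis, by chromatin immunoprecipitation and sequencing (ChIP-seq) in whole L2 larvae of the wild-type strain N2, males and females pooled, with no treatment in the labels. It holds 1 group of 2 biological replicates, and there is no second condition, genotype or stage. Whole larvae mix all tissues, so few cells with much polymerase on a gene and many cells with little cannot be told apart.

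Splicing removes introns from precursor RNA. The factor SF1, encoded by sfa-1, binds the branch point of an intron, and the large subunit of U2AF, encoded by uaf-1, binds the pyrimidine-rich tract near the 3′ splice site. SR proteins, which carry RNA recognition motifs and stretches rich in arginine and serine, bind exons and help the spliceosome choose sites. tos-1, whose name stands for target of splicing, is an alternatively spliced gene whose isoforms are used in worms to follow the activity of such factors. SR protein genes of animals are themselves often alternatively spliced, with exons that bring an early stop codon.

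An optimal list of 1861 peaks, made by the authors with the irreproducible discovery rate, carries signals between 47.4 and 1434.88 with a median of 65.5. It was made from both replicates, but a peak in it need not be strong in each replicate alone. A pooled list and 1 list per replicate hold 30000 peaks each, background included. The signal is the authors' value for each peak, on a scale that the sources used here do not give, so lists are compared by rank, where rank 1 is the highest signal. For each replicate, its 1861 peaks of highest signal are called its strongest peaks. Read depth is unknown, and a SD over 2 lists from separate peak calls would have no common scale. A gene window runs from 500 bp before the annotated 5′ end to 500 bp past the 3′ end, and a 5′ window covers 500 bp on each side of the 5′ end. Positions are on ce11 (WBcel235).

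An optimal AMA-1 summit lay in the gene window of 7 of the 10 genes, and each of the 7 had one in the 5′ window. These were tos-1, rsp-1, rsp-2, rsp-3, rsp-5, rsp-6 and rsp-7, while rsp-4, uaf-1 and sfa-1 had no optimal summit. Of all protein-coding genes, 7.6% had an optimal summit in the gene window and 4.8% in the 5′ window. The rsp-2 and rsp-7 summits lay 346 and 341 bp before these genes, nearer to the 5′ end of another gene. Both genes lost the 5′ call with 250 bp windows and with the nearest 5′ end only. Each choice left 5 of the 10 genes, against 3.37% and 4.02% of all genes. The windows held 10 different optimal peaks: 4 at tos-1, 2 at rsp-6, 1 shared by rsp-1 and rsp-2, and 1 each at rsp-3, rsp-5 and rsp-7. At least 2 summits lay at 2 of the 10 genes, against 1.94% of all genes, and at least 4 at 1 gene, tos-1, against 0.26%. The count of 4 rests on a long noncoding transcript of tos-1. The summits 2723 and 4642 bp past the 3′ end of its coding transcripts lie outside a window drawn from those alone. The share of all genes with at least 4 was not counted for coding transcripts only. A summit past the 3′ end was present at 2 genes, tos-1 and rsp-6, against 2.7% of all genes. In the whole pooled list all 10 genes had a summit, as did 44.2% of all genes.

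**Figure D1:**
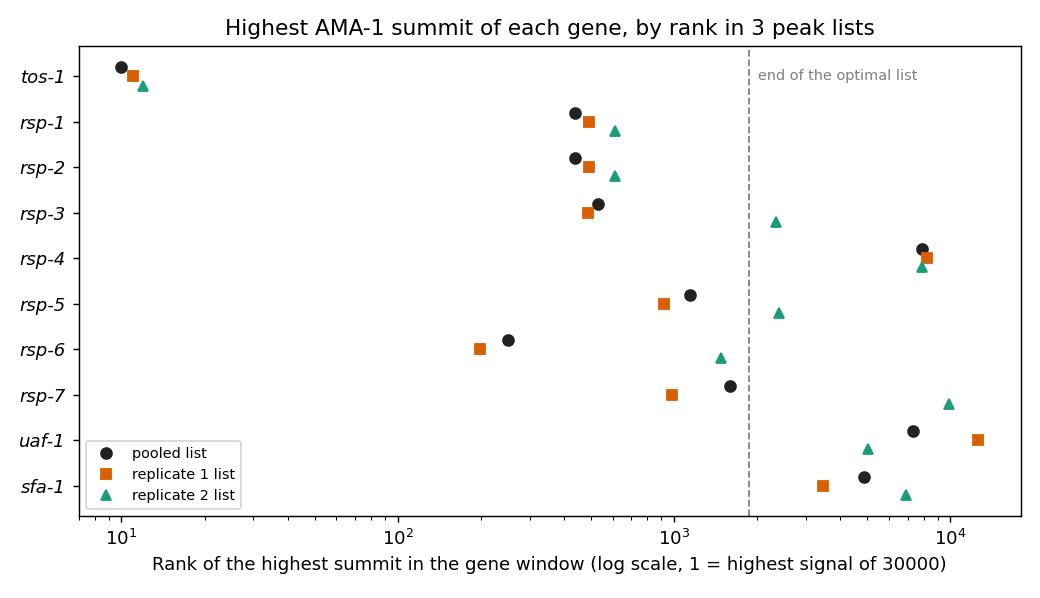
Rank of the highest AMA-1 summit in the window of each of the 10 genes (log axis, 1 is the highest of 30000) in the pooled, replicate 1 and replicate 2 lists, with the end of the optimal list at 1861 as a dashed line. The points of tos-1 lie at 10, 11 and 12, those of rsp-4, uaf-1 and sfa-1 lie right of the line in all 3 lists, and rsp-3, rsp-5 and rsp-7 cross it in replicate 2.

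The highest signal was at tos-1 (WBGene00019466, chromosome V, 9338859 to 9344203, minus strand). Its summit at 9344145 lay 58 bp after the 5′ end, with a signal of 593.7 and rank 10 of the pooled list. It fell in the 5′ UTR of the 2 transcripts that reach so far upstream and before the start of the other 4. The nearest summit of replicate 1 had a signal of 445.2 and rank 11 and lay 2 bp away, and that of replicate 2 had a signal of 161.5 and rank 12 and lay 55 bp away. In both replicates the peak was thus among the highest of its list. Ordered by highest optimal signal at the 5′ end, tos-1 was the 4th of 959 genes. The genes nearest to it in that order were ift-43 and mdt-26, which share a peak of 657.5, and ufbp-1 with 594.0 above it, and Y75B8A.23 and tim-1, which share a peak of 504.1, and T28F4.5 with 418.6 below it. mdt-26 encodes a subunit of Mediator and ift-43 a protein of intraflagellar transport. The ufbp-1 peak had rank 6 in replicate 1 and rank 836 in replicate 2, so that of these neighbours its replicates were the farthest apart.

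The bases before tos-1 that its start peak covers and that lie in no annotated transcript are shown because they hold a TATA-like sequence and reach up to the annotated 5′ end (chrV:9344204-9344301, minus strand, RefSeq genome, WBcel235). Capitals mark TATAAA, and the last base is the one before the annotated 5′ end.
tos-1: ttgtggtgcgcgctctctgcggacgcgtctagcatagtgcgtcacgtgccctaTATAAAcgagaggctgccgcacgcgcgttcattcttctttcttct
The GC content of this stretch was 56.1%, against 44.7% at rsp-1, 36.9% at rsp-3, 42.5% at rsp-5 and 33.1% at rsp-6 in the stretches given further on. The rsp-7 stretch of 112 bases, which is not shown, had 29.5%. TATAAA on either strand was found in the 250 bases before the 5′ end of the coding transcripts of 4 of the 10 genes (tos-1, rsp-2, rsp-5 and sfa-1) and of 35.2% of all protein-coding genes.

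A further 3 optimal summits lay along tos-1 and past its end. The second summit, at 9343216, lay 987 bp after the 5′ end with a signal of 86.5 (rank 467). Its peak was 996 bp wide, the widest of the 10, and the replicate 1 summit had rank 282, while the replicate 2 summit had rank 474 and lay 309 bp away. The third summit, at 9340568, lay 3635 bp after the 5′ end with a signal of 93.1 (rank 396). Its replicate summits had ranks 558 and 442 and lay 1 bp and 0 bp away, the closest pair among the 10 peaks. The last summit, at 9338649, lay 210 bp past the 3′ end with a signal of 70.5 (rank 783) and had ranks 1501 and 371 in replicates 1 and 2.

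Where these summits fall depends on which tos-1 transcripts are counted. The 3 coding transcripts end 913 bp after the 5′ end, and a noncoding transcript, K07B1.6e, carries the gene on to 5345 bp. The second summit therefore lay 75 bp past the coding 3′ end, and the summit at 9340568 lay 2723 bp past it, both inside the last exon of the noncoding transcript. The last summit lay inside coq-6, a gene of coenzyme Q synthesis on the opposite strand, 209 bp before its 3′ end, and the 2 genes meet with a gap of 0 bp. Which of the 2 genes carried the polymerase there was not tested, since these peaks have no strand.

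**Figure D2:**
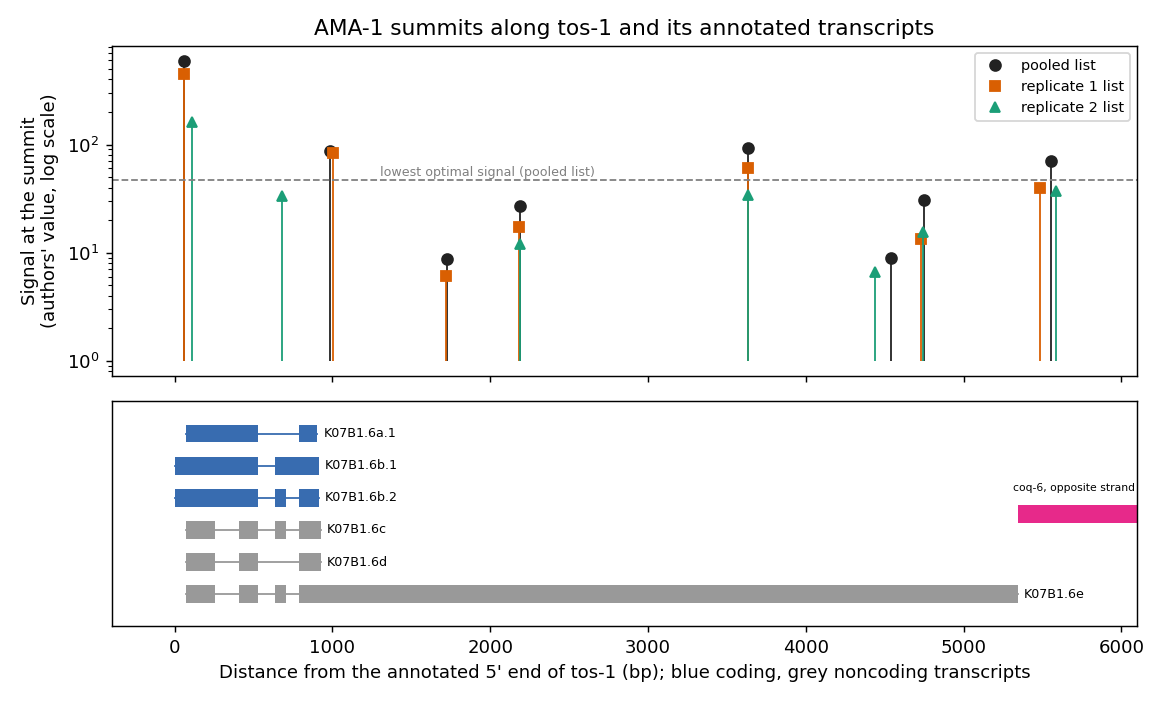
AMA-1 summits along tos-1: the upper panel gives the signal at each summit (authors' value, log axis) in the pooled, replicate 1 and replicate 2 lists against distance from the 5′ end in bp, with the lowest optimal signal of 47.4 dashed, and the lower panel gives the annotated exons, coding transcripts in blue and noncoding ones in grey. The summits at the start stand highest in all 3 lists, and those at 3635 bp coincide in the 3 lists inside the long noncoding exon.

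Along the whole tos-1 window the pooled list held 8 summits, the replicate lists 7 each. That is 1.26 pooled summits per kb, more than most genes, and 8.71% of all genes had a higher density. Over the 10 genes the density had a median of 1.25 per kb, against 0.861 for 75 other splicing genes, 0 for the median gene and 0.299 for the genome. The lowest density of the 10 was that of uaf-1 (0.745) and the highest that of rsp-3 (2.19).

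The SR protein genes rsp-1 and rsp-2 share 1 peak. rsp-1 (WBGene00004698, chromosome II, 11453362 to 11455864, plus strand) and rsp-2 (WBGene00004699, chromosome II, 11451441 to 11452955, minus strand) are divergent neighbours, both SR protein genes, with 406 bp between them. The pooled summit at 11453301 lay 61 bp before rsp-1 and 346 bp before rsp-2, with a signal of 89.0 and rank 437. In replicate 1 the highest summit there was at 11453176 (signal 64.1, rank 493), between the 2 annotated 5′ ends, with a weaker one at 11453376 (21.6, rank 4842). In replicate 2 it was at 11453350 (30.5, rank 612), 12 bp before rsp-1. The replicates placed the highest point on different sides of the pooled summit, and in all 3 lists it was nearer to the annotated 5′ end of rsp-1 than to that of rsp-2. Distance does not show which of the 2 genes carried the polymerase. The annotated 5′ end of rsp-1 rests on a noncoding transcript. With coding transcripts only, the rsp-1 5′ end lies at 11453974, and 6 of the 10 genes keep an optimal summit, against 4.79% of all genes in the 5′ window and 7.59% in the gene window.

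rsp-3, rsp-5 and rsp-7 also share their peaks with a divergent gene. rsp-3 (WBGene00004700, chromosome III, 12686182 to 12687922, minus strand) is the worm counterpart of human SRSF1. Its summit at 12688117 lay 195 bp before rsp-3 and 201 bp before spin-4, a Spinster-like transporter gene, almost midway between the 2, with a signal of 82.7 (rank 529) and ranks of 487 and 2341 in replicates 1 and 2. The rsp-5 summit (WBGene00004702, chromosome II, 6490165 to 6491340, plus strand) at 6489994 lay 171 bp before rsp-5 and 233 bp before snr-3, which encodes an Sm core protein, with a signal of 59.8 (rank 1140) and ranks of 920 and 2399. The rsp-7 summit (WBGene00004704, chromosome II, 10659206 to 10662317, plus strand) at 10658865 lay 341 bp before rsp-7 and 239 bp before snu-13, which encodes a protein that binds U4 small nuclear RNA. It had a signal of 51.3 (rank 1592), the lowest of the 10 peaks, and a rank of 982 in replicate 1. In replicate 2 the nearest summit was 200 bp away at rank 10879, so replicate 2 alone did not have this peak among its strongest. It also lay 32 bp before a noncoding RNA gene, M28.13. A divergent 5′ end within 1000 bp was present at 5 of the 10 genes, at 36.7% of the 959 genes with an optimal summit in the 5′ window and at 17.7% of all genes.

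rsp-6 (WBGene00004703, chromosome IV, 7789847 to 7791229, minus strand), an SR protein gene related to human SRSF3 and SRSF7, had an optimal summit at each end. The summit at 7791292 lay 63 bp before the 5′ end with a signal of 78.6 (rank 609) and ranks of 543 and 2912 in replicates 1 and 2. The summit at 7789706 was the higher, with 114.3 (rank 250) and ranks of 199 and 1477, and lay 141 bp past the 3′ end. It also lay 93 bp before the 5′ end of imp-3, the next gene on the same strand, which encodes an intramembrane protease. The higher peak of rsp-6 can therefore not be told apart from a start peak of imp-3. The 5′ summit lay in no other gene's 5′ window, but it lay 412 bp past the 3′ end of C33H5.13, the next gene upstream.

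The bases under the 5′ peaks of rsp-1, rsp-3, rsp-5 and rsp-6 that lie in no annotated transcript are shown to compare them (RefSeq genome, WBcel235, each in the direction of the named gene, at most 160 bases about the summit). The stretches are chrII:11453221-11453361 on the plus strand for rsp-1, chrIII:12688037-12688196 on the minus strand for rsp-3, chrII:6489914-6490073 on the plus strand for rsp-5 and chrIV:7791230-7791371 on the minus strand for rsp-6. Capitals mark a stretch shared by rsp-1 and rsp-3, its core GCGTCGCG in rsp-6, and TTTCAG.
rsp-1: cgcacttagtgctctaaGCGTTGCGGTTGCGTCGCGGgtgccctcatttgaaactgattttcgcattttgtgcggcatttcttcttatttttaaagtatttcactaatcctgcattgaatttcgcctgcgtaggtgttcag
rsp-3: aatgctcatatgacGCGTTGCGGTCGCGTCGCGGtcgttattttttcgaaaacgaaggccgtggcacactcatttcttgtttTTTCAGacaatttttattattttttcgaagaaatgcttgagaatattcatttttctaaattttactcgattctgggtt
rsp-5: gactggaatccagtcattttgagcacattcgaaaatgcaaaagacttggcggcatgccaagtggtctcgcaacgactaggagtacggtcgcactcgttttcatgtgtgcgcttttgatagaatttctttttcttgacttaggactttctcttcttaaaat
rsp-6: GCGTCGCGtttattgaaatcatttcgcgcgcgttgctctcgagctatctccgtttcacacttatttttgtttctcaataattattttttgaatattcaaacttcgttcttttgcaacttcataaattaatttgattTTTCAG
The rsp-1 and rsp-3 stretches are 20 bases long and differ by T11C, counted from 1 at the 5′ end with the rsp-1 base first. Their nearer ends lie 44 and 46 bp from the optimal summit, at chrII:11453238-11453257 and chrIII:12688163-12688182. The stretch was found after the sequences were seen, as the longest with at most 1 mismatch over 15 pairs of windows in 2 orientations, and the next longest had 12 bases. With at most 1 mismatch to either version, it matches at 261 positions in the genome, of which 86 are on chromosome II and 73 on chromosome V. Matches that overlap in tandem runs, as on chromosome V, were each counted. An optimal summit lay within 500 bp of 6 of the positions. These include the rsp-1 and rsp-3 positions from which the stretch was taken, which lie under optimal peaks by choice. The stretch is thus a repeated sequence, and most positions lack an optimal summit. The core GCGTCGCG was cut from the shared stretch after it was seen, so rsp-1 and rsp-3 hold it by choice and its counts carry no test. Of the 6 windows compared, 3 held it (rsp-1, rsp-3 and rsp-6), and those of tos-1, rsp-5 and rsp-7 did not. On either strand, the core was found in the 250 bases before the coding 5′ end of 3 of the 10 genes and of 0.566% of all protein-coding genes. The 3 were rsp-2, rsp-3 and rsp-6, and rsp-1 has it farther from its coding 5′ end. It was found in 2.53% of all optimal peaks, which are longer. No factor was measured at these sequences.

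**Figure D3:**
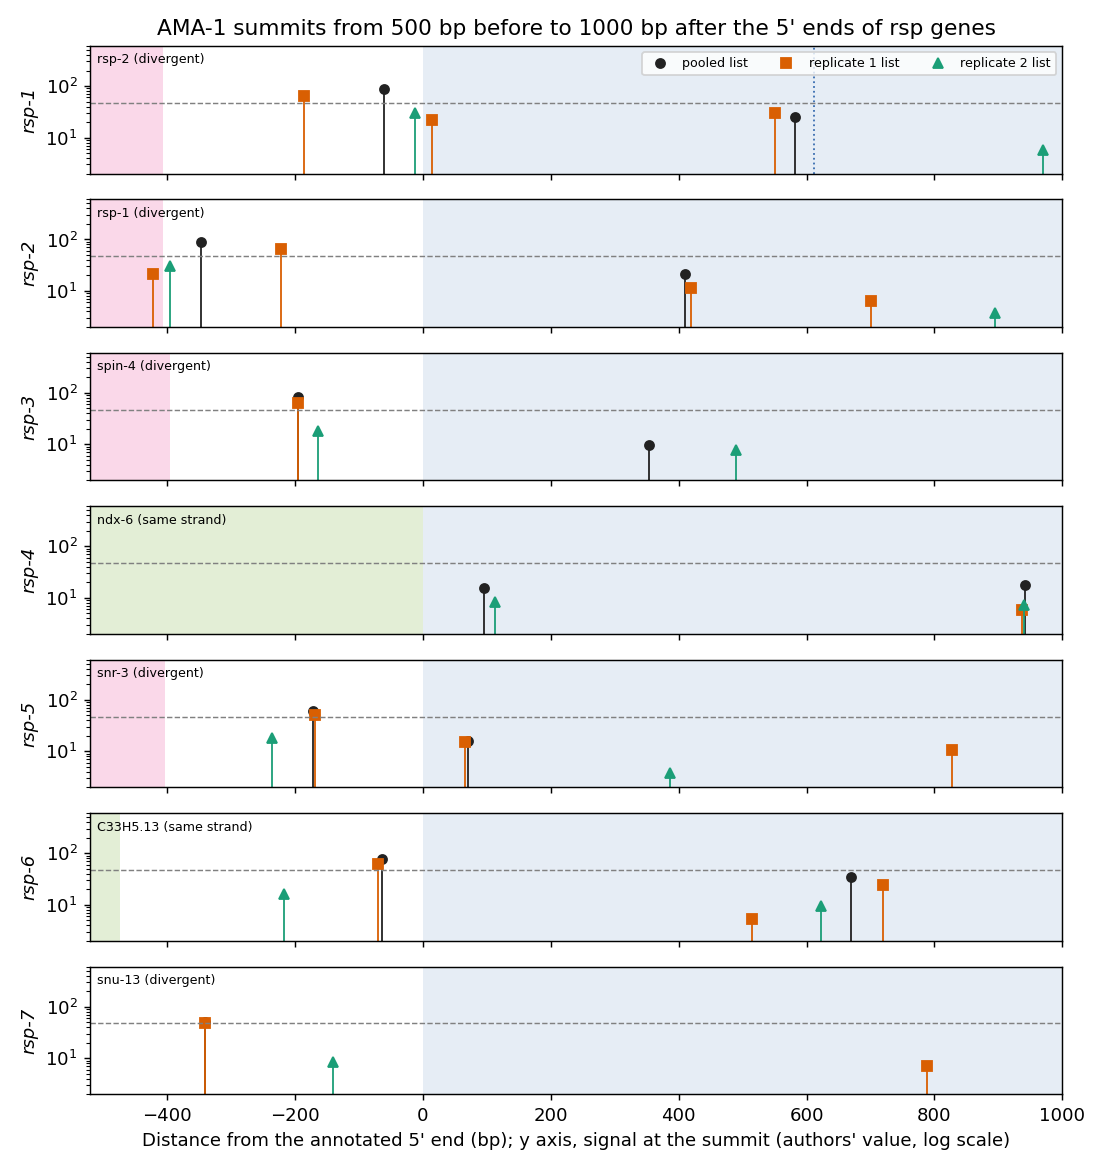
AMA-1 summits near the 5′ ends of the 7 rsp genes, 1 panel per gene, with the signal at each summit (authors' value, log axis) in the pooled, replicate 1 and replicate 2 lists against distance from the 5′ end in bp. The gene is shaded blue, a divergent upstream gene pink and a same-strand one green, the dotted line marks the coding 5′ end of rsp-1 and the dashed line the lowest optimal signal of 47.4; rsp-4 is the gene with no summit above that line, and the optimal summits of rsp-1, rsp-2, rsp-3, rsp-5 and rsp-7 lie in the gap between divergent genes.

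The 3 genes without an optimal summit lie downstream of a gene on the same strand, as do tos-1, 818 bp after K07B1.7, and rsp-6, 474 bp after C33H5.13. rsp-4 (WBGene00004701, chromosome II, 5387411 to 5388836, minus strand), the worm counterpart of human SRSF2, had its highest pooled summit at rank 7916 with a signal of 22.4. Its highest replicate summits had ranks of 8196 and 7897. Those summits lay 68, 62 and 159 bp past its 3′ end. The next gene on the same strand, ccpp-6, begins after a gap of 93 bp. Which of these genes carried the polymerase there was not tested. In the 5′ window of rsp-4 the pooled summit had 15.3 (rank 14393), and replicate 1 had none. The 5′ end of rsp-4 overlaps the 3′ end of ndx-6 by 8 bp. The 5′ end of ndx-6 had an optimal summit with a signal of 73.9 (rank 708), which lay 1275 bp before rsp-4. uaf-1 (WBGene00006697, chromosome III, 1062794 to 1076555, minus strand) reached 23.4 at rank 7347, 8048 bp into the gene, with ranks of 12549 and 5020 in replicates 1 and 2 at different places. Upstream of it by 1582 bp lies rab-18, whose 5′ end had an optimal summit of 91.6 (rank 412). sfa-1 (WBGene00013808, chromosome IV, 17103825 to 17110982, minus strand) reached 29.4 at rank 4859, 353 bp past its 3′ end, with ranks of 3464 and 6932. The next gene on the same strand, Y116A8C.30, begins after a gap of 109 bp, so that summit lay beyond its start. Which of these genes carried the polymerase there was not tested. In the 5′ window of sfa-1 the pooled summit had 18.0 (rank 11324). sfa-1 lies 98 bp after cyn-13, whose 5′ end reached 32.0 at rank 4157 and so had no optimal summit. Operon membership was not analysed here, and an absent optimal summit shows only that none passed the authors' threshold.

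By highest pooled signal in the gene window, the order of the genes was tos-1, rsp-6, rsp-1 and rsp-2 with the shared peak, rsp-3, rsp-5, rsp-7, sfa-1, uaf-1 and rsp-4. The place of rsp-6 rests on the summit beside imp-3, and its 5′ summit (78.6) was below that of rsp-3 (82.7). The place of sfa-1 rests on a summit 353 bp past its 3′ end, beside Y116A8C.30. With windows of 250 bp the highest sfa-1 signal was 19.3, below uaf-1 (23.4) and rsp-4 (22.4). The place of rsp-4 rests on a summit 68 bp past its 3′ end, beside ccpp-6. A higher pooled signal was found at 0.0401% of all genes for tos-1, at 1.18% for rsp-6 and at 6.61% for rsp-7. For sfa-1, uaf-1 and rsp-4 the figures were 16.5%, 22.0% and 23.1%. The step from rsp-7 (51.3) to sfa-1 (29.4) spans the lowest optimal signal of 47.4. Beyond the optimal peaks, the highest summit in the window of a gene with an optimal one was that of rsp-3 (35.1, rank 3448), 341 bp past its 3′ end. The next was at rsp-6 (34.0, rank 3687). Neighbours in this order did not keep their places in each replicate. rsp-3 stood just above rsp-1 and rsp-2 in replicate 1 (ranks 487 and 493) and well below them in replicate 2 (2341 and 612), and sfa-1 stood above uaf-1 in replicate 1 (3464 and 12549) but below it in replicate 2 (6932 and 5020). tos-1 was highest in each list.

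The replicates differed in how many of the genes their strongest peaks reached. In replicate 1 the gene windows of 7 of the 10 genes held a strongest summit, against 7.9% of all genes, and the 5′ windows of the same 7, against 5.24%. In replicate 2 the gene windows of 4 genes (tos-1, rsp-1, rsp-2 and rsp-6) held one, against 6.44% of all genes, and the 5′ windows of 3 (tos-1, rsp-1 and rsp-2), against 2.94%. In both replicates together these were the same 4 genes by gene window, against 3.64% of all genes. The count for rsp-6 in replicate 2 rests on the summit beside imp-3. Of the 10 optimal peaks, 10 were overlapped by a strongest peak of replicate 1 and 6 by one of replicate 2, against 81.5% and 56% of all optimal peaks. The median distance between the pooled summit and the nearest replicate summit was 4.5 bp in replicate 1 and 52 bp in replicate 2, against 8 bp and 29 bp over all optimal peaks.

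Of 77 other splicing genes listed by name, 75 matched the annotation. An optimal summit lay in the gene window of 7 of the 10 genes described here, against 19 of the 75 (25.3%) and 7.6% of all genes, and in the 5′ window of 7 of the 10, against 15 of the 75 (20%) and 4.8% of all genes. By group, the 5′ window held one at 4 of 6 LSm genes, whose products form the rings around U6 RNA and around messenger RNA in decay, at 1 of 7 Sm core genes, and at 1 of 11 genes of U1 and U2 proteins. It held one at 2 of 19 genes of the tri-snRNP, catalytic core and helicases, at 1 of 6 exon junction and export genes, and at 6 of 26 splicing regulators and hnRNP genes. Among the highest signals were 192.9 at lsm-5, 89.1 at lsm-6, 79.1 at hel-1, 77.6 at lsm-7, 76.2 at smu-1, 75.7 at hrpa-1 and 63.5 at prp-8. hel-1 encodes an RNA helicase of export, hrpa-1 an hnRNP A1 protein and prp-8 the core protein of the spliceosome. Each of these was below tos-1, and of these lsm-5 alone was above the higher rsp-6 peak. The lsm-5, lsm-7 and prp-8 summits lay at -463, 483 and -387 bp from the 5′ end, where a minus sign means upstream. Those of lsm-6, hel-1, smu-1 and hrpa-1 lay within 250 bp. Of the LSm genes counted, lsm-6 alone had a summit that near, and the lsm-4 summit lay at -298 bp. With 250 bp windows 7 of the 75 kept a 5′ summit, and with the nearest 5′ end only, 12. Which gene carried the polymerase at these summits was not tested. The 2 genes snr-3 and snu-13 of the list are counted through the peaks they share with rsp-5 and rsp-7. In replicate 2 the 5′ windows of 4 of the 75 held a strongest summit (5.33%), against 19 in replicate 1 (25.3%).

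**Figure D4:**
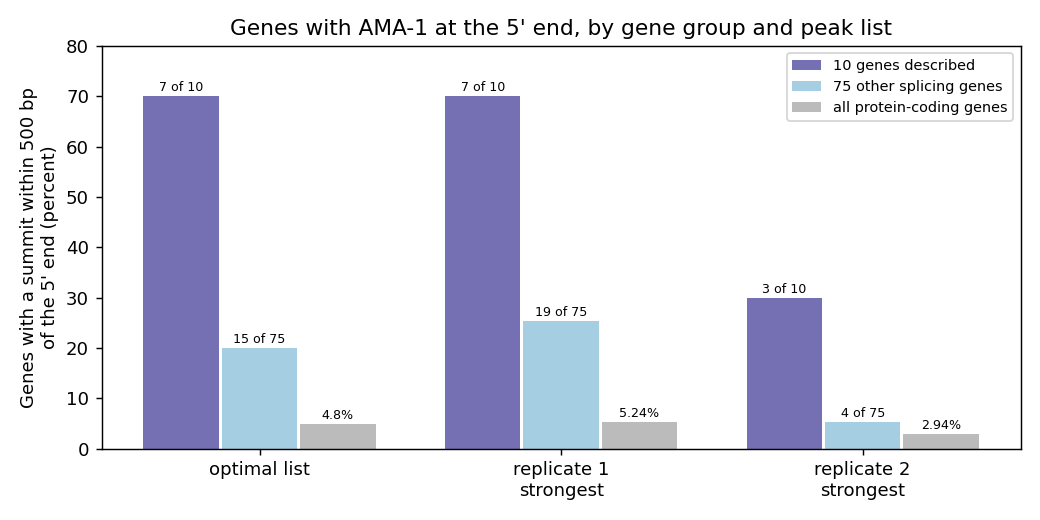
Percent of genes with a summit within 500 bp of the 5′ end among the 10 genes described, 75 other splicing genes and all protein-coding genes, in the optimal list and in the strongest 1861 peaks of each replicate. The bars stand at 7 of 10, 15 of 75 and 4.8% in the optimal list, and at 3 of 10, 4 of 75 and 2.94% in replicate 2.

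The transcript annotation holds alternative stop codons for some of the genes. The genes were chosen by name as SR protein genes, splicing factors and tos-1, where alternative splicing was already known, so these shares are a description. A coding transcript with an earlier stop codon before its last exon, beside one that reads further, was annotated for 5 of the 10 genes (tos-1, rsp-1, rsp-4, rsp-5 and rsp-7). The same was annotated for 4 of the 75 other splicing genes (5.33%), for 3.75% of the 959 genes with an optimal summit in the 5′ window and for 1.66% of all genes. Of these 5, rsp-4 has no optimal summit. The sequences of these alternative exons are shown from the last 24 intron bases to the stop codon, in capitals, in the direction of the gene (WBcel235, chrV:9343548-9343591 minus, chrII:11454618-11454659 plus, chrII:5388299-5388359 minus, chrII:6490696-6490780 plus and chrII:10659763-10659810 plus).
tos-1: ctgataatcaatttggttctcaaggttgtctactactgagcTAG
rsp-1: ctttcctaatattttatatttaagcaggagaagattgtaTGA
rsp-4: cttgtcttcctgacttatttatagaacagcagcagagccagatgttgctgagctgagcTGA
rsp-5: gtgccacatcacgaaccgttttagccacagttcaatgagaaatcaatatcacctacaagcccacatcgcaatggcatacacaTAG
rsp-7: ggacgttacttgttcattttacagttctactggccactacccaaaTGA
They show how early the reading frame ends after each of these splice sites.

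No optimal summit lay inside an exon that some transcripts of the 10 genes skip. Below the optimal threshold, the pooled list held a summit in the 247 bp alternative exon of rsp-6 (signal 34.0, rank 3687), where the replicates had summits at ranks 4063 and 8972. It held 1 in the 280 bp alternative exon of rsp-1 (rank 24411), with a summit at rank 25995 in replicate 2 and none in replicate 1. In the 67 bp alternative exon of tos-1 replicate 2 alone had a summit (rank 474), which belongs to the wide second peak. The alternative exons of rsp-4, rsp-5 and rsp-7 held no summit in any list. Isoform use was not measured by this assay.

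Many worm messenger RNAs receive a spliced leader at an acceptor site just before the start codon, so an annotated 5′ end can lie downstream of where transcription begins. The letters TTTCAG, which match the usual acceptor, were found in the 24 bases before the most upstream annotated start codon of 6 of the 10 genes (rsp-1, rsp-2, rsp-3, rsp-4, rsp-6 and rsp-7) and of 19.6% of all genes. 3 examples are shown with TTTCAG and the start codon in capitals, beside tos-1, which lacks it (WBcel235, chrIV:7791226-7791252 minus, chrII:11453957-11453983 plus, chrII:5388824-5388850 minus and chrV:9344127-9344153 minus).
rsp-6: cataaattaatttgattTTTCAGtATG
rsp-1: tcattcattcgctttctTTTCAGcATG
rsp-4: tcataaatgattttcaTTTCAGaaATG
tos-1: ttctcaagtctcaaattattaaagATG
The 5′ summits of rsp-3, rsp-5, rsp-6 and rsp-7 lay between 63 and 341 bp before their annotated 5′ ends, and that of tos-1 lay 58 bp after it. Among these, rsp-5 also lacks the exact letters TTTCAG in the 24 bases. Close variants were not counted, so a gene without these letters may still have an acceptor. Whether spliced leaders bear on where the summits lie was not tested. In the 250 bases before the coding 5′ end, on either strand, TTTCAG was found at 6 of the 10 genes and 42.6% of all genes, and GAGAGA at 3 of 10 and 19.2%. Of the bases under the 10 optimal peaks, all 36-base words were unique in the genome except at 2 tos-1 peaks, where 95.7% (summit at 9343216) and 95.2% (summit at 9340568) were.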

How the data were processed

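AMA-1 ChIP-seq was deposited as narrowPeak lists for 2 biological replicates of whole L2 larvae. Per the deposited file descriptions, the authors made each replicate list and the pooled list from alignments and a file that also underlies the control-normalised track, and the optimal list from these by the irreproducible discovery rate. The sources used here name no peak caller, aligner, version or threshold. The deposited signal of a peak has no stated scale and was compared only within a list. The optimal list was exactly the upper part of the pooled list.

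Summits were set against the Ensembl release 115 annotation with windows of 500 bp, using Python 3.11.15, pandas 2.3.3 and numpy 2.4.6, and the window code was tested on simulated data. Replicate summits were the nearest among overlapping peaks. Sequences came from the RefSeq ce11 genome. The genes and lists were chosen with earlier results of these data known. Named genes were the 10 genes, the 8 listed splicing genes of highest 5′ signal (1 is not reported here), genes with a 5′ or 3′ end within 500 bp of their peaks and the 3 genes on each side of tos-1 in signal order. K07B1.7, ndx-6, rab-18 and cyn-13, as upstream neighbours, and M28.13 were named after their values were seen. With 1 group, no test was made. Windows, summit use, list length, single replicates, coding transcripts and nearest 5′ ends were varied.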

Additional observations from a re-analysis of the deposited data

How the results depend on the processing

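No paired analysis was possible because the study has 1 group. Among the 10 genes, the count with an optimal summit was 7 in the gene window and 7 in the 5′ window, and it stayed between 5 and 7 in both with windows of 250 bp or 1000 bp, with peak overlap in place of the summit, with the upper 50 percent of the optimal list, with a list of the length of the ce10 optimal list, and with 2 choices made after seeing the data, coding transcripts only and, for the 5′ window, the nearest 5′ end only. Over the same choices the share of all genes ran from 4.12% to 9% in the gene window and from 2.43% to 6.12% in the 5′ window. The lowest shares were those with the upper 50 percent of the list and the highest those with 1000 bp windows. With a single replicate the counts ranged from 4 to 7 in the gene window (6.44% to 7.9% of all genes). In the 5′ window they ranged from 3 to 7 (2.94% to 5.24% of all genes). The lower values were those with replicate 2 alone. Among the 75 other splicing genes, 19 had a summit in the gene window, against 12 with 250 bp windows (6.07% of all genes), 8 with the upper 50 percent (4.12%), 62 with the whole pooled list (44.2%), and 9 to 22 with a single replicate (6.44% to 7.9%). In the 5′ window 15 had one, against 7 with 250 bp windows (3.37% of all genes), 7 with the upper 50 percent (2.43%), 49 with the whole pooled list (31.7%), and 4 to 19 with a single replicate (2.94% to 5.24%). Of 40 alternatives for single genes, 33 left the value or its side of the optimal threshold as it was. With 250 bp windows the highest signals fell to 21.4 at rsp-2, 18.6 at rsp-7 and 19.3 at sfa-1. The cause of these moves was not tested beyond the smaller window or list itself. With unknown depth and 2 replicates, a rank difference between neighbours in the order cannot be given an error.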
